A study of Homo sapiens with 8 samples.

Results

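Sjögren's disease is an autoimmune disease of the salivary and lacrimal glands in which autoantibodies bind proteins of the patient's own cells. The genes described here encode 5 of these autoantigens: TRIM21 (Ro52), RO60 (Ro60), SSB (La), IFI16 and SPTAN1 (alpha-fodrin). They were chosen by name, as every probe set that the platform annotation pairs with 1 of these symbols. This gave 14 of the 45253 probe sets with 1 gene symbol, and 5 of 18239 genes. TRIM21 and SSB had 1 probe set each, IFI16 had 3, RO60 had 4 and SPTAN1 had 5. No probe set with several symbols listed any of them.

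All values come from 1 cell line, NS-SV-AC, immortalised cells of human salivary gland acini. TNF-treated cells received TNF-a at 20 ng/ml for 2, 6, 12 or 24 h, and BSA-treated cells received bovine serum albumin, a control protein, for the same times. Total RNA was hybridised to 8 Affymetrix GeneAtlas arrays, 1 for each treatment and time, so no treatment had a replicate at any time. Levels below are log2 RMA values, differences are log2 and TNF minus BSA, and a difference of 1 is 2-fold. A level is compared only within its own probe set, since the brightness of different probe sets depends on their probes.

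The 5 proteins have different tasks. Ro52 is a ubiquitin ligase of the TRIM family that also binds the constant part of IgG inside the cell and marks antibody-coated virus for the proteasome, and in human cells its gene is known as inducible by interferon. Ro60 is a ring-shaped protein that binds Y RNAs and misfolded small RNAs, and La binds the uridine-rich 3′ ends of new RNA polymerase III transcripts, including Y RNAs. IFI16 is a sensor of DNA in the nucleus and cytosol, of the HIN-200 family, and its gene is also known as inducible by interferon. Alpha-fodrin is a spectrin chain under the plasma membrane, and it is cut by caspases and calpains in dying cells.

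Motifs of inflammatory transcription factors were looked for in RefSeq's promoter windows (GRCh38.p14, 250 bases before to 50 after each annotated start), which were found for all 5 genes. The stretches that hold a match are shown because 2 of them lie at the interferon-inducible genes of the group. Capitals mark the match.
TRIM21, chr11:4393664-4393693, minus strand: tctgagcgGAAACTGAAAGTGAAataggga
IFI16, chr1:159009822-159009851, plus strand: ccaggaaactgTTCATTTTCtctgactaac
SSB, chr2:169799184-169799213, plus strand: gcgggatcctGGGGTTCCCCgcacgtggct

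The interferon response motif was searched as GAAANNGAA on both strands. The TRIM21 window held 2 overlapping copies on the sense strand, from 18 to 32 bases after the start. For IFI16, 1 of 2 windows held 1 copy, on the antisense strand, from position −74 to −66 relative to a start. The windows of RO60, SSB and SPTAN1 held 0, and 8.11% of all 35116 windows held at least 1. The NF-κB consensus was found in 1 of 2 SSB windows, from position −108 to −99 relative to a start, and reads as a match on both strands. It was in 0 windows of the other 4 genes and in 5.91% of all windows. A STAT dimer motif, TTCNNNGAA, was in 0 windows of the 5 genes and in 7.66% of all windows. These are matches of letters only.

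The array of TNF-treated cells at 24 h stands apart. On it the 3′ control of GAPDH read 6.28 above the 5′ control, where the remaining 7 arrays had 0.20 to 0.37. The same gap for ACTB was 6.88 there and 2.59 to 3.47 elsewhere. A wide gap is a usual sign of degraded RNA, so 24 h values are given apart from those at 2 to 12 h. The labelled cell type was checked on 13 measured markers of gland epithelium. KRT18 (7.36 to 10.33) and the ion cotransporter SLC12A2 were the 2 of 13 above all of the array's 23 nonspecific controls on every array. SLC12A2 averaged 7.27 on the TNF arrays and 7.30 on the BSA arrays from 2 to 12 h, and read 8.06 and 7.68 at 24 h. The keratin KRT8 averaged 8.65 (TNF) and 8.74 (BSA) from 2 to 12 h, but read 2.72 (TNF) and 6.37 (BSA) at 24 h. The water channel AQP5 read 3.88 to 4.13 and the salivary mucin MUC7 read 2.80 to 3.07, inside the range of those controls (2.38 to 6.98, median 2.82). The epithelial markers EPCAM (2.83 to 3.57) and CDH1 (3.07 to 4.37) also read inside that range on every array. So did the keratins KRT19, KRT5 and KRT14, and the markers PRB1, LPO and BHLHA15. Most of the 13 markers therefore gave no clear sign of the labelled cell type. The 8 markers of leukocytes, vessels and fibroblasts all read inside that range, with PTPRC, which all leukocytes carry, at 3.01 to 3.27. Their summed level was 31.5 to 33.1 on the TNF arrays, highest at 24 h, and 30.7 to 31.6 on the BSA arrays, lowest at 24 h. Since the 8 markers read inside the range of the controls, this sum might not measure such cells. Its part in the results was not tested.

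IFI16 was the member that differed most between TNF and BSA, and the difference was larger at each later time up to 12 h. Its brightest probe set (11716796_s_at) read 5.42, 6.10, 7.29 and 7.61 at 2, 6, 12 and 24 h in TNF-treated cells, against 5.51, 5.19, 5.58 and 5.69 in BSA-treated cells. At 2 h the 2 arrays were 0.08 apart, with TNF the lower, and the 3 later TNF arrays all lay above every BSA array. The differences were −0.08, 0.91, 1.71 and 1.92, which at 12 h is 3.27-fold as measured. The BSA values lie inside the range of the nonspecific controls (up to 6.98) and the TNF values at 12 and 24 h lie above it, so the size of the fold is uncertain. The 24 h value comes from the array with the wide GAPDH gap, whose part in it was not tested. In these RNA mixtures of many cells, more RNA per cell and more cells with the RNA cannot be told apart.

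The other 2 probe sets of IFI16 gave nearly the same course. The probe set 11716795_s_at differed by 0.06, 0.98, 1.75 and 2.34, and 11747926_s_at by −0.06, 1.08, 1.67 and 1.61. In BSA-treated cells the 3 probe sets spanned at most 0.70 over the 4 times, and in TNF-treated cells at least 1.97. At 12 h the 3 differences lay within 0.075 of each other, and at 24 h within 0.73.

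**Figure D1:**
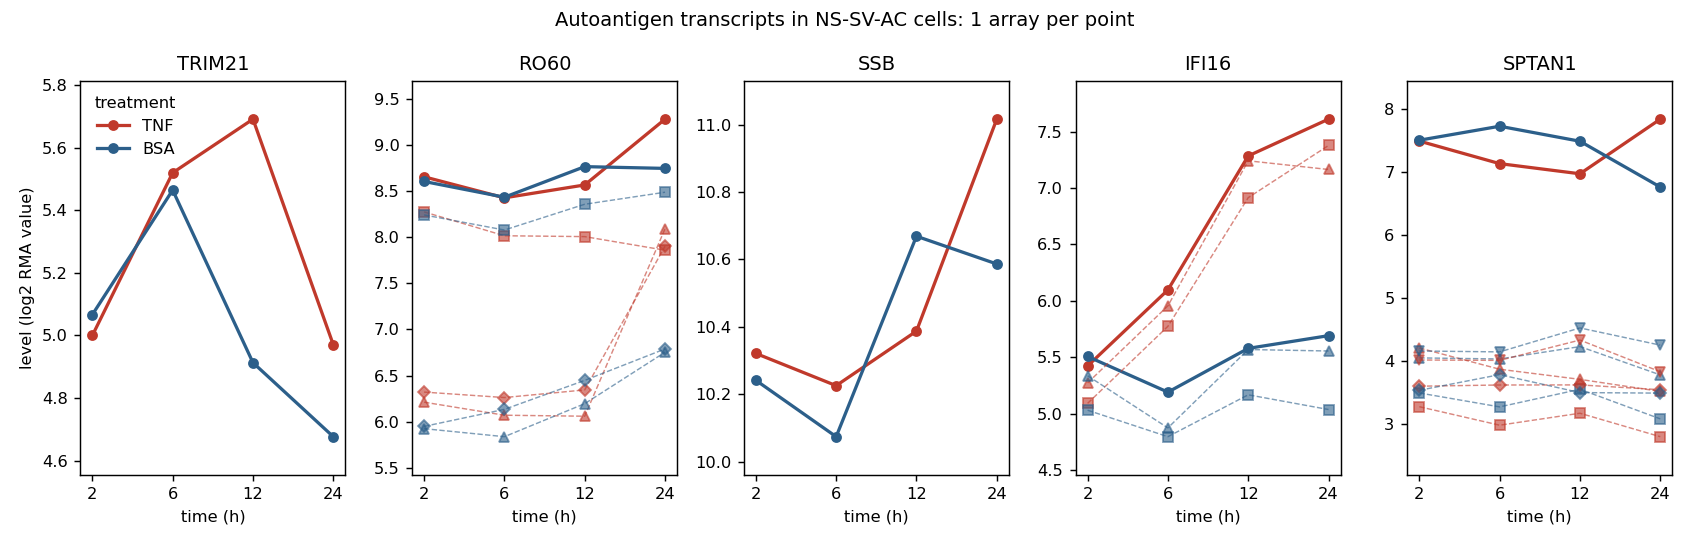
Level (log2 RMA value) of every probe set of the 5 genes against time in hours, in TNF-treated (red) and BSA-treated (blue) cells, 1 array per point; solid lines are the probe set with the highest mean of its gene, dashed lines the others, and vertical scales differ between panels. At 12 h the 3 red lines of IFI16 lie between 6.92 and 7.29, and their blue lines end at 24 h between 5.04 and 5.69. Among the other genes from 2 to 12 h, TRIM21 is the furthest apart, by 0.78 at 12 h. The brightest SPTAN1 probe set comes next, with TNF lower by 0.59 at 6 h.

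Whether a difference held over the times was asked with limma, with a term for treatment and 1 level per time, so that the error comes from the pairs of arrays. That error takes in noise between arrays as well as effects that differ between times. Adjusted p-values are Benjamini-Hochberg values over all 45253 probe sets. With limma 0 of the 14 member probe sets passed an adjusted p of 0.05 over the 4 times, where 0.00442% of all probe sets did, and 0 of 14 over 2 to 12 h, where 0.217% did. At an unadjusted p under 0.05 there were 5 of 14 over the 4 times, where 6.49% of all probe sets were, and 5 of 14 over 2 to 12 h, where 12.6% were. All 3 probe sets of IFI16 were among these in both fits. The rest were SPTAN1 probe sets that were lower in TNF. They were 11715963_a_at in both fits, 11760403_at over the 4 times and 11758363_s_at over 2 to 12 h. The smallest unadjusted p of the 14 in both fits was that of 11715963_a_at, which read only 2.80 to 3.55. Probe sets of 1 gene may read the same transcripts, so they cannot be taken as independent counts.

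Over 2 to 12 h the brightest IFI16 probe set was 0.84 ± 0.31 higher in TNF (SE, 3 pairs of arrays, limma adjusted p = 0.367) and higher in 2 of 3 pairs. Over the 4 times it was 1.11 ± 0.36 higher (adjusted p = 0.688, higher in 3 of 4 pairs). The other 2 probe sets had 0.93 ± 0.29 (11716795_s_at, adjusted p = 0.319) and 0.90 ± 0.31 (11747926_s_at, adjusted p = 0.344) over 2 to 12 h. The 2 h pair, in which IFI16 was within 0.08 of BSA, decides this call. From the 6 and 12 h pairs alone the brightest probe set was 1.31 higher (limma adjusted p = 0.0153), 11716795_s_at was 1.36 higher (0.0117) and 11747926_s_at was 1.38 higher (0.00576). Leaving out another pair instead, the brightest was 0.81 higher without 6 h (adjusted p = 0.765) and 0.41 higher without 12 h (adjusted p = 0.756), so of these 3 fits only the one without the pair in which IFI16 was nearest to BSA passed. That fit has 1 residual degree of freedom and called 4 of the 14 members, where it called 3.59% of all probe sets.

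A change of the difference with time was tested as the product of treatment and log2 hours in a further limma model. For the brightest IFI16 probe set the difference was 0.59 ± 0.12 larger per doubling of the hours (SE, 8 arrays, adjusted p = 0.779). With limma 0 of 14 members passed, as did 0% of all probe sets, and 4 of 14 were at an unadjusted p under 0.05, where 4.17% of all were. The slope in the BSA arm was 0.07 ± 0.09 for this probe set. No member passed for that slope either (0 of 14, 0% of all probe sets), and 0 of 14 were at an unadjusted p under 0.05, where 3.88% of all were.

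**Figure D2:**
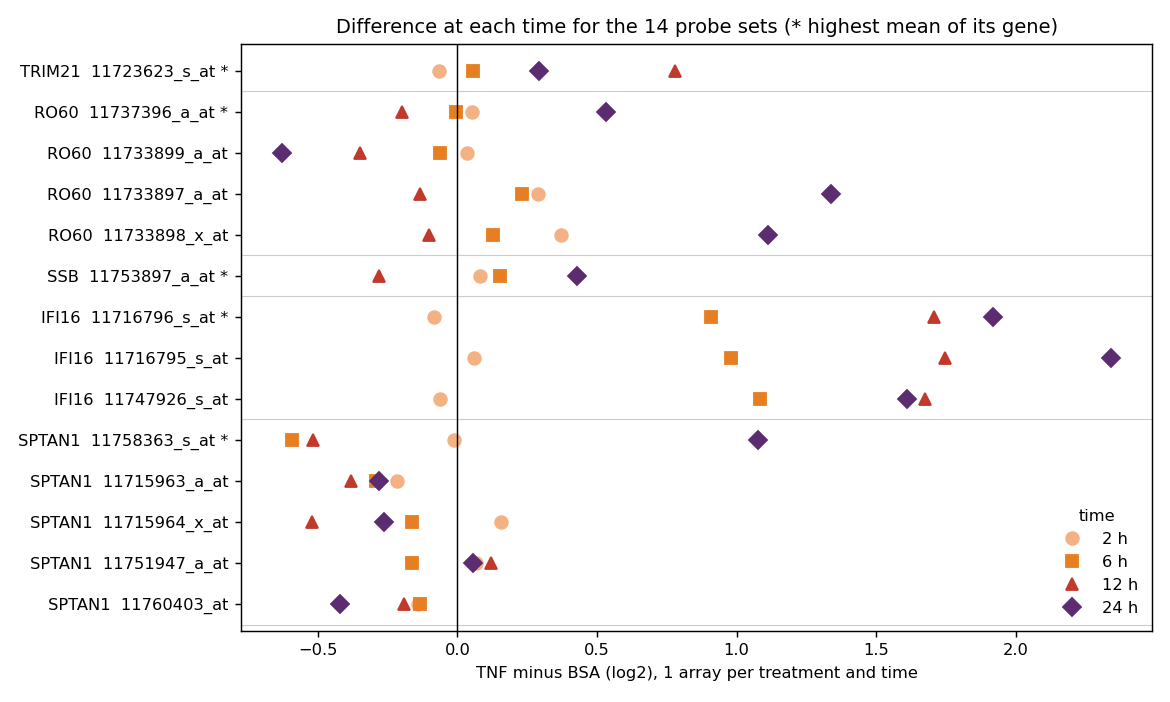
TNF minus BSA (log2) at 2, 6, 12 and 24 h for each of the 14 probe sets, 1 array per treatment and time; an asterisk marks the probe set with the highest mean of its gene. The IFI16 points at 6, 12 and 24 h lie between 0.91 and 2.34, and from 2 to 12 h every point of the other 4 genes lies between −0.59 and 0.78.

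Counted at single times with no test, 0 of the 14 member probe sets were at least 2-fold higher in TNF after 2 h, 1 after 6 h, 3 after 12 h and 6 after 24 h, on the array with the GAPDH gap. The shares of all probe sets at 2, 6, 12 and 24 h were 0.389%, 1.18%, 1.11% and 4.64%. All of those at 6 and 12 h were IFI16, and at 24 h they were the 3 of IFI16, 2 of RO60 and 1 of SPTAN1. At least 2-fold lower were 0 of 14 at each time, where the shares of all probe sets were 0.0309%, 0.267%, 0.614% and 10.0% at 2, 6, 12 and 24 h.

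TRIM21 (11723623_s_at), the gene of Ro52, was apart at 1 time. It read 5.00, 5.52, 5.69 and 4.97 at 2, 6, 12 and 24 h in TNF-treated cells, against 5.07, 5.46, 4.91 and 4.68 in BSA-treated cells. Both arms read about the same at 2 and 6 h, and at 12 h the TNF array held the highest of the 8 values while the BSA array had the second lowest. The differences were −0.07, 0.06, 0.78 and 0.29, which at 12 h is 1.71-fold as measured. All 8 values lie inside the range of the nonspecific controls (2.38 to 6.98), so the probe set was not clearly above background and this fold is uncertain. BSA-treated cells alone spanned 0.79 over the 4 times, as much as the 12 h difference.

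The mean TRIM21 difference was 0.26 ± 0.17 over 2 to 12 h (SE, 3 pairs, limma adjusted p = 0.594, higher in 2 of 3) and 0.27 ± 0.16 over the 4 times (adjusted p = 0.688, higher in 3 of 4). Without the 12 h pair the 2 and 6 h pairs gave −0.0057. In order, the level was highest in TNF at 12 h, TNF at 6 h and BSA at 6 h, and lowest in BSA at 24 h. With 1 array each, no neighbours in that order can be told apart.

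RO60, the gene of Ro60, was within 0.37 of BSA on all of its 4 probe sets from 2 to 12 h. The brightest (11737396_a_at) read 8.65, 8.43, 8.57 and 9.28 at 2, 6, 12 and 24 h in TNF-treated cells, against 8.60, 8.43, 8.76 and 8.75 in BSA-treated cells. The arms overlapped up to 12 h, where TNF was the lower, and TNF at 24 h held the highest value. The mean difference over 2 to 12 h was −0.05 ± 0.08 (SE, 3 pairs, limma adjusted p = 0.848).

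At 24 h the probe sets of RO60 disagreed. The differences were 0.53 on the brightest, 1.34 on 11733897_a_at, 1.11 on 11733898_x_at and −0.63 on 11733899_a_at. The last of these was 7.86 in TNF, below all 4 BSA values (8.08 to 8.49). Affymetrix uses the ending _x_at for probe sets with probes that can also bind other sequences. The 4 differences at 24 h spanned 1.97, and at 2, 6 and 12 h they spanned 0.34, 0.29 and 0.25. Among the 11822 genes with at least 2 probe sets the median span was 0.18, 0.24, 0.24 and 0.63 at 2, 6, 12 and 24 h. These 24 h values come from the array with the GAPDH gap of 6.28, and the part of RNA quality in them was not tested.

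SSB, the gene of La, had the smallest mean difference of the 5 brightest probe sets from 2 to 12 h. Its probe set (11753897_a_at) read 10.32, 10.23, 10.39 and 11.02 in TNF-treated cells at 2, 6, 12 and 24 h, against 10.24, 10.07, 10.67 and 10.59 in BSA-treated cells. The arms overlapped, with TNF higher at 2, 6 and 24 h and lower at 12 h. In both arms the lowest value was at 6 h. Over 2 to 12 h the difference was −0.02 ± 0.10 (SE, 3 pairs, limma adjusted p = 0.970), and over the 4 times 0.09 ± 0.13 (adjusted p = 0.786).

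SPTAN1, the gene of alpha-fodrin, was lower in TNF at 6 and 12 h on its brightest probe set, without passing the test. That probe set (11758363_s_at) read 7.49, 7.14, 6.98 and 7.84 at 2, 6, 12 and 24 h in TNF-treated cells, against 7.51, 7.73, 7.49 and 6.76 in BSA-treated cells. The arms were equal at 2 h to within 0.014, TNF was lower by 0.59 at 6 h and by 0.52 at 12 h, and at 24 h it was 1.08 higher, on the array with the GAPDH gap. At 24 h the BSA array had its lowest value and the TNF array its highest. Its mean difference over 2 to 12 h was −0.37 ± 0.13 (SE, 3 pairs, limma adjusted p = 0.339, lower in 3 of 3). Without the 2 h pair, the one with the smallest difference, it was −0.56 (adjusted p = 0.0388), in the fit that called 3.59% of all probe sets. It was −0.27 without the 6 h pair (adjusted p = 0.774) and −0.30 without the 12 h pair (adjusted p = 0.737).

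The 4 other probe sets of SPTAN1 read between 2.80 and 4.53, where the nonspecific controls had a median of 2.82. On 11715963_a_at the TNF array was lower at all 4 times, by 0.22 to 0.38, and 11760403_at was also lower at all 4, by 0.13 to 0.42. The mean differences over 2 to 12 h were −0.30 ± 0.07 (SE, 3 pairs, limma adjusted p = 0.257) and −0.16 ± 0.07 (adjusted p = 0.425). The probe set 11715964_x_at was higher at 2 h and lower at the 3 later times, and 11751947_a_at stayed within 0.16 of BSA at every time. At 24 h the 1.08 of the brightest probe set was matched by none of these, which lay between −0.42 and 0.05.

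IFI16 and TRIM21 were set beside other genes of their pathways, on 1 probe set per gene (the one with the highest mean). In these gene-level fits limma called 0.318% of all 18239 genes higher and 0.0493% lower over 2 to 12 h, and over the 4 times 0.0164% higher and 0% lower. Of 18 measured interferon-stimulated genes and factors, 1 rose over 2 to 12 h: IRF1, a transcription factor, by 2.44 ± 0.11 (SE, 3 pairs, limma adjusted p = 0.0030). Over the 4 times 0 of 18 passed, and 15 of 18 were higher at an unadjusted p under 0.05. Of all genes 4.12% were higher and 3.39% lower at that p over the 4 times, and 4.89% higher and 9.12% lower over 2 to 12 h. The median differences of this group were 0.14, 1.05, 2.01 and 2.88 at 2, 6, 12 and 24 h, where the medians of all genes were −0.02, −0.01, −0.0043 and 0.20. IFI16, with −0.08, 0.91, 1.71 and 1.92, lay under the group's median at each time, and TRIM21 lay further below it from 6 h on. At 12 h 17 of the 18 were at least 2-fold higher, where 1.29% of all genes were. Most of the 18 had means from 2 to 12 h inside the nonspecific controls' range in BSA-treated cells, among them IRF1 (6.79) and GBP1 (4.33). The size of their folds, and with it that of the group's medians, is therefore uncertain.

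**Figure D3:**
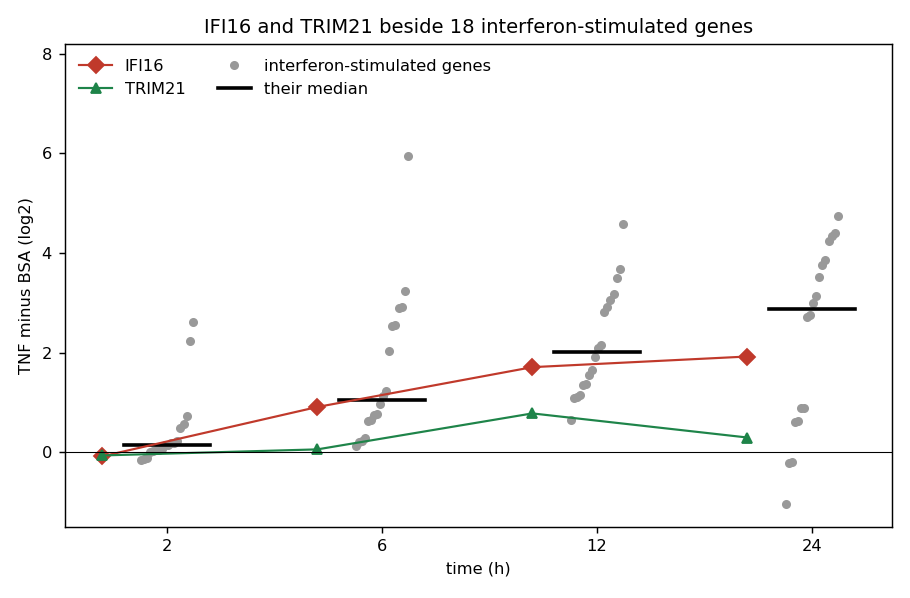
TNF minus BSA (log2) against time in hours for 18 interferon-stimulated genes (grey points, ordered by value within each time; black bars are their medians), with the brightest probe sets of IFI16 (red diamonds) and TRIM21 (green triangles). IFI16 reaches 1.71 at 12 h, under the median of 2.01, and TRIM21 reaches 0.78.

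Among 14 other TRIM ligases of antiviral defence 0 passed in either limma fit, and at an unadjusted p under 0.05 3 of 14 were higher over 2 to 12 h, where 4.89% of all genes were, and 2 of 14 over the 4 times, where 4.12% were. TRIM25, which ubiquitinates the RNA sensor RIG-I, was 1.06 ± 0.16 higher over 2 to 12 h (SE, 3 pairs, limma adjusted p = 0.114), at 0.60, 1.47 and 1.11. TRIM56 was 0.32, 1.05 and 1.11 higher at 2, 6 and 12 h, and TRIM14 was −0.0039, 0.38 and 0.93. The group's median at 12 h was 0.19, and TRIM21 at 0.78 was above it.

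Of 13 measured partners and substrates of Ro52, 1 rose over 2 to 12 h. SQSTM1, the autophagy receptor p62, rose by 0.89 ± 0.08 (SE, 3 pairs, limma adjusted p = 0.0225), at 0.81, 0.88 and 0.98, and over the 4 times it was 0.78 higher without passing (adjusted p = 0.368). Over the 4 times limma called 0 of 13, and 3 of 13 were higher at an unadjusted p under 0.05, where 4.12% of all genes were. The group's medians at 2, 6 and 12 h were 0.0067, 0.12 and 0.12.

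Of 13 genes of the HIN-200 family and of cytosolic DNA sensing 0 passed in either limma fit, and 2 of 13 were higher at an unadjusted p under 0.05 in each, where 4.12% of all genes were over the 4 times and 4.89% over 2 to 12 h. IFI35, a partner of NMI, was −0.07, 0.79 and 2.04 at 2, 6 and 12 h, the nucleotidase SAMHD1 was 0.18, 0.50 and 0.94 higher, and the adaptor STING1 was −0.05, 0.32 and 0.47. AIM2 and MNDA, HIN-200 relatives of IFI16, were within 0.19 of BSA from 2 to 12 h, and the relative PYHIN1 within 0.24. Their mean levels over these times were 3.02, 3.01 and 3.67 in TNF-treated cells and 3.03, 2.98 and 3.74 in BSA-treated cells, inside the nonspecific controls' range, so a difference might not be seen on them. IFI35 is also in the list of Ro52 partners. The DNA sensing group's median at 12 h was 0.12, where IFI16 was at 1.71. Most of the 13 had means from 2 to 12 h inside the nonspecific controls' range in both arms, with IFI35, SAMHD1 and STING1 among them. The size of their differences is therefore uncertain, and the group's median might miss differences.

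Another list of 18 genes covered Ro and La RNA particles, La-related proteins such as LARP4, and RNA nucleases such as DIS3L. None of the 18 passed (limma, 0 higher and 0 lower in both fits, and 1 of 18 lower at an unadjusted p under 0.05 in each). Of all genes 3.39% were lower at that p over the 4 times and 9.12% over 2 to 12 h, so these counts are near the background. The medians of the 18 were 0.0096, 0.05 and −0.02 at 2, 6 and 12 h. DIS3L, a nuclease of the exosome, was the furthest apart, at −0.19, −0.65 and −1.06 (−0.63 ± 0.16 over 2 to 12 h, SE, 3 pairs, limma adjusted p = 0.229). Its means over these times (5.75 in TNF-treated and 6.38 in BSA-treated cells) lie inside the nonspecific controls' range, so its fold is uncertain. LARP4 was 0.14, 0.55 and −0.06, and IGF2BP1 was 0.11, 0.21 and 0.14. A further list held 22 other autoantigens, mostly nuclear or of RNA particles, with the water channel AQP5 and the receptor CHRM3 among them. Of these limma called 0. Over 2 to 12 h 1 of 22 was higher and 1 lower at an unadjusted p under 0.05. Of all genes 4.89% and 9.12% were, so this is not above the background. PARP1, which builds poly(ADP-ribose) at DNA breaks, was 0.51, 0.19 and 0.50 at 2, 6 and 12 h, the centromere protein CENPA was −0.24, −0.46 and −0.24, and the spindle protein NUMA1 was 0.03, −0.63 and −0.21. RO60 and SSB were at −0.20 and −0.28 at 12 h.

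Of 18 measured genes of the spectrin skeleton and its proteases limma called 0 in either fit, and 2 of 18 were higher at an unadjusted p under 0.05 in each, where 4.12% of all genes were over the 4 times and 4.89% over 2 to 12 h. The medians of the 18 at 2, 6 and 12 h were −0.02, 0.0090 and −0.13. ANK3, which anchors spectrin to membrane proteins, was −0.02, 0.29 and 1.27 at 2, 6 and 12 h. The calpain CAPN2 was 0.01, 0.44 and 0.46, and the calpain CAPN1 was −0.07, −0.59 and −0.16. Over these times ANK3 averaged 6.25 (TNF) and 5.74 (BSA), and CAPN1 5.12 (TNF) and 5.39 (BSA). These means lie inside the nonspecific controls' range, so the folds of both genes are uncertain.

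The genes most like each member were ranked by Pearson r over the 7 arrays other than TNF at 24 h, among 2712 genes that had a mean above the median and a span of at least 1. The ranking was run for IFI16 and TRIM21 only, since the brightest probe sets of RO60, SSB and SPTAN1 spanned 0.34, 0.59 and 0.97. The 5 most like IFI16 were PLSCR1 (r = 0.98), TLR4 (0.98), SQOR (0.98), SP100 (0.98) and ADAMTS9 (0.97). TLR4 read 4.71 to 6.67 over the arrays, inside the nonspecific controls' range (2.38 to 6.98). PLSCR1, an interferon-inducible scramblase, was 0.05, 1.34, 2.18 and 2.59 at 2, 6, 12 and 24 h, and SP100, a nuclear body protein that is itself an autoantigen in primary biliary cholangitis, was −0.10, 1.18, 1.68 and 2.97. SQOR and ADAMTS9 were 1.67 and 2.25 at 12 h, but −0.44 and 0.55 at 24 h.

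**Figure D4:**
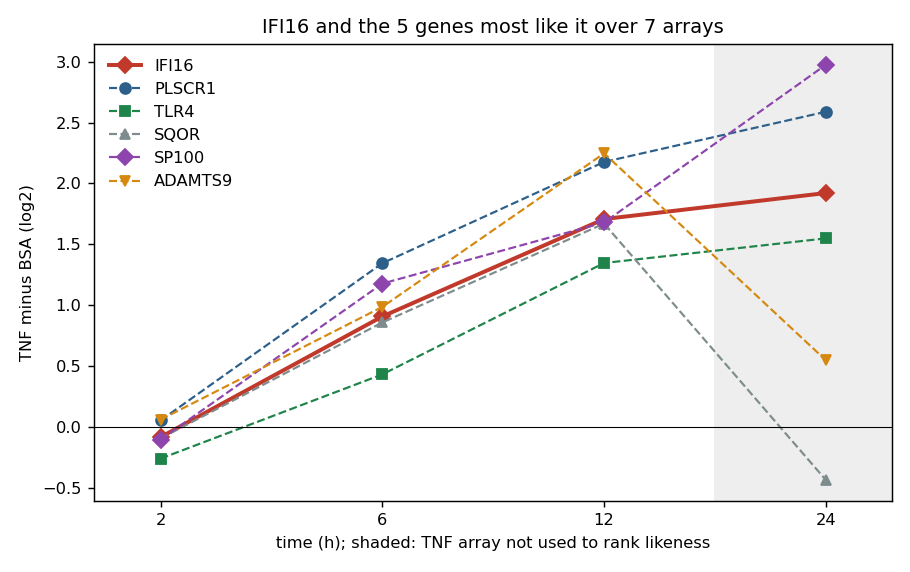
TNF minus BSA (log2) against time in hours for IFI16 (solid red) and the 5 genes with the highest r to it (dashed), 1 array per treatment and time; the shaded 24 h values include the TNF array left out of the ranking. At 12 h all 6 genes lie between 1.35 and 2.25, and at 24 h they spread from −0.44 to 2.97.

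The 5 most like TRIM21 were PGAM5 (0.98), SYNGR2 (0.96), TMBIM1 (0.95), C5AR1 (0.95) and HDGF (0.95). All 5 were within 0.43 of BSA at 2 and 6 h, and 0.54 to 1.07 higher at 12 h. Over all 8 arrays r was 0.69 to 0.98 for these genes and 0.56 to 0.99 for the 5 most like IFI16. The 7 arrays share treatments, times and normalisation, so these names describe a pattern only.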

How the data were processed

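Values were the authors' deposited log2 values, 1 per probe set and array, made with RMA per the submitters' processing notes. RMA corrects background, equalises the probe distributions of the arrays and summarises each probe set. The software, its version and filters: not given in the sources used here. Labelling started from 10 ng of total RNA with a 3′ IVT kit, per the labels' protocols. Of 49386 probe sets, 45253 had 1 gene symbol (1327 several, 2713 none, 93 controls). Symbols were updated through Entrez identifiers, which matched for 45172. No further normalisation or filter was applied.

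Tests used limma 3.58.1 in R 4.3.3 (lmFit, eBayes, two-sided) with Benjamini-Hochberg adjustment over all features, threshold 0.05. Treatment was fitted with time as a factor over 4 times (3 residual degrees of freedom) and over 2, 6 and 12 h (2), and treatment by log2 hours over 8 arrays (4). The code was tested on simulated data. The labels do not say whether arrays came from separate cultures, so the spread between arrays may be technical. The p-values of the treatment fits measure that spread together with any change of the effect with time. Arrays give no read depth, and their number limits precision. No batch is labelled.

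The members, lists and rules were chosen with earlier results of these data known. Genes named from a list are those past the threshold, otherwise the 3 with the largest mean difference over 2 to 12 h. AIM2, MNDA and PYHIN1 were named in addition, after their values were seen. The 5 genes most like a member were ranked by Pearson r. Alternatives tried were the probe set rule, centring, quantile normalisation again, a filter on dim probe sets, trended variance, array weights, the time scale and leaving out each time.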

Additional observations from a re-analysis of the deposited data

How the results depend on the processing

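No member passed over the 4 times or with the product term under any alternative run, and over 2 to 12 h members passed only without the 2 h pair, where 4 of 14 did (0 to 4 over the fits that left out 1 pair). The count over all features tested was less steady. These were 45253 probe sets, except for 18239 genes with the mean of probe sets and 22626 probe sets above the median level. Over the 4 times the count was 2, against 1 with the mean of probe sets per gene, 5 above the median level, 5 with trended variance, 32 with array weights and 0 to 98 leaving out 1 pair. Over 2 to 12 h it was 98, against 36 with the mean of probe sets, 194 with trended variance and 6 to 1624 leaving out 1 pair. With the mean of probe sets, members at least 2-fold higher were 0 of 5 genes at 6 h and 1 of 5 at both 12 h and 24 h. The 2 pathway genes called over 2 to 12 h became 0 with the 24 h pair. IFI16 kept its sign throughout, and its 3 probe sets ran from 0.52 to 1.36, 0.41 to 1.31 and 0.51 to 1.38 over 2 to 12 h leaving out 1 pair.

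Signs turned for these uncalled values. Over the 4 times RO60 was −0.024 with array weights and −0.052 to 0.19 leaving out 1 pair, and SSB was −0.017 to 0.22. SPTAN1 11751947_a_at was −0.031 after quantile normalisation, −0.0030 with array weights and −0.015 to 0.080 leaving out 1 pair, and 11758363_s_at was 0.035 after quantile normalisation and −0.37 to 0.18. Over 2 to 12 h RO60 was 0.020 with the mean of probe sets and −0.10 to 0.022 leaving out 1 pair, TRIM21 −0.0057 to 0.42, SSB −0.10 to 0.12 and SPTAN1 11751947_a_at −0.0022 after centring, −0.013 after quantile normalisation and −0.050 to 0.094 leaving out 1 pair. On the 2, 6 and 12 h arrays the change of the difference per doubling of hours was −0.15, −0.18 and −0.091 for RO60 11733897_a_at, 11733898_x_at and 11737396_a_at, −0.12 for SSB and −0.21 for SPTAN1 11758363_s_at, and the BSA slopes of SPTAN1 11715963_a_at, 11715964_x_at, 11751947_a_at and 11758363_s_at were 0.0080, 0.062, 0.0015 and 0.0070. The cause of these changes was not tested. SPTAN1 11758363_s_at kept its sign over 2 to 12 h, at −0.56 to −0.27 leaving out 1 pair. Arrays were paired by time in every treatment fit.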

Other observations

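The spread between probe sets of 1 gene was itself larger at 24 h. Of the 11822 genes with at least 2 probe sets, 34.9% had differences at least 1 apart at 24 h, against 0.457% at 2 h, 1.78% at 6 h and 2.30% at 12 h. RO60 (1.97 apart) and SPTAN1 were among them and IFI16 (0.73 apart) was not. Depending on the probe set, RO60 at 24 h was 2.53-fold higher (11733897_a_at) or 1.55-fold lower (11733899_a_at) in TNF-treated cells.

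KRT8, a keratin of simple epithelium listed as a marker of the gland, averaged 8.65 on the TNF arrays and 8.74 on the BSA arrays from 2 to 12 h. At 24 h it read 2.72 on the TNF array, the one with the wide GAPDH gap, and 6.37 on the BSA array.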
